A study of Mus musculus with 14 samples.

Results

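The cytochrome P450 4 (Cyp4) fatty acid hydroxylases and soluble epoxide hydrolase were followed in the liver and kidney of mice kept on a normal or a high salt diet. The members were 10 genes taken by their symbols from the gene count tables, out of 19660 genes in the liver table and 20203 in the kidney table. They were Cyp4a10, Cyp4a12a, Cyp4a12b, Cyp4a14, Cyp4b1, Cyp4f13, Cyp4f14, Cyp4f15, Cyp4v3 and Ephx2, and all 10 were in both tables. The mice were adult males aged 12 weeks, and all of them, on either diet, carried the -6A haplotype of the human angiotensinogen gene as a transgene. The liver had 4 libraries per diet and the kidney 3. The salt content of the diets, their length, the promoter span of the transgene and the strain are not given in the sources used here. Nor is it given whether each library came from its own animal, so p-values measure only the spread between these libraries, which may be technical.

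Cyp4 enzymes sit in the endoplasmic reticulum and add a hydroxyl group to the far end of fatty acids, the omega position. With arachidonic acid this makes 20-HETE, a lipid that constricts small arteries and slows salt uptake in the renal tubule. P450 enzymes of the Cyp2c and Cyp2j families instead make epoxides of arachidonic acid, which relax vessels, and soluble epoxide hydrolase, the product of Ephx2, opens those epoxides to diols. In mice Cyp4a12a is the main 20-HETE synthase and is driven by androgen, while Cyp4a10 and Cyp4a14 are classical targets of the fatty acid sensor PPARA. Cyp4f14 hydroxylates leukotriene B4 among other lipids, Cyp4v3 is the mouse counterpart of the human retinal dystrophy gene CYP4V2, and Cyp4b1 acts on shorter fatty acids and foreign compounds.

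The Cyp4a members and Cyp4b1 lie in 1 cluster on chromosome 4 (GRCm38), where Cyp4a12a spans 115299046 to 115332815, Cyp4a12b 115411624 to 115439034, Cyp4a14 115486200 to 115496142, Cyp4a10 115518264 to 115533649 and Cyp4b1 115624725 to 115647723. Cyp4f15 (32685627 to 32703352), Cyp4f14 (32905070 to 32917342) and Cyp4f13 (32924688 to 32947402) lie in that order on chromosome 17. Cyp4v3 is on chromosome 8 (45304944 to 45333216) and Ephx2 on chromosome 14 (66084374 to 66124500). Several of the Cyp4a genes are near-identical copies, and that bears on how far their counts can be told apart. The coding sequences of Cyp4a12a and Cyp4a12b differ at 23 of 1527 bases (98.5% identity), and 48.9% of all 50-base windows of the Cyp4a12a transcript also occur in Cyp4a12b. The stretch below is where the pair differs most closely together. It is coding bases 624 to 683, in exons 5 and 6, on the plus strand at chr4:115326309-115326681 for Cyp4a12a and chr4:115432561-115432934 for Cyp4a12b, with the intron left out. Capitals mark the bases that differ.
Cyp4a12a: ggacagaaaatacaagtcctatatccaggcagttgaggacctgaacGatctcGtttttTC
Cyp4a12b: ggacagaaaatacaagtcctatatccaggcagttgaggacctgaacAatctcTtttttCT

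Cyp4a10 has a like pair of copies that are not members, Cyp4a31 (52 differences in 1530 coding bases, 96.6% identity) and Cyp4a32 (43 differences, 97.2% identity). Cyp4a14 stands further off, with 376 differences from Cyp4a10 over 1524 aligned coding bases (75.3% identity) and no 50-base window in common. The next 4 sequences show this at coding bases 106 to 165 in exon 1. They lie at chr4:115518427-115518486 (Cyp4a10, plus strand), chr4:115563822-115563881 (Cyp4a31, plus strand), chr4:115601080-115601139 (Cyp4a32, plus strand) and chr4:115495949-115496008 (Cyp4a14, minus strand). In the first 3 capitals mark the bases at which those copies differ from each other, and in Cyp4a14 they mark the 14 bases found in none of the other copies.
Cyp4a10: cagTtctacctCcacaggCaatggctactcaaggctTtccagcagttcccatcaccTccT
Cyp4a31: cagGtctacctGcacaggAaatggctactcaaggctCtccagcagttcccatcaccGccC
Cyp4a32: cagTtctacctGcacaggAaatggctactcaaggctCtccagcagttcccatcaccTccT
Cyp4a14: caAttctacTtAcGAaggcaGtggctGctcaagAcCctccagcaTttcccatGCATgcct

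Liver libraries held 37267778 to 51487382 counts and kidney libraries 16046094 to 22004927. Albumin (Alb), the plasma protein made by hepatocytes, stood at 32441 to 85226 counts per 1000000 (CPM) in liver and 2.70 to 35.7 in kidney, and the proximal tubule receptor Lrp2 at 677 to 1507 CPM in kidney and 0.476 to 2.24 in liver, so each library carried the markers of its labelled tissue. The high salt liver columns are numbered 5 to 8, which shows the diet but not which titled sample each holds. Transcripts of the mitochondrial genome made up 2.06% to 2.30% of the counts in normal diet liver libraries 1 and 2. In the other 6 liver libraries they made up 11.3% to 29.6%. Normal diet library 3 held the highest share, and the part of this share in the members' levels was not tested. High salt liver libraries 5 and 6 were close to each other: over the members their mean absolute log2 difference was 0.054, against 0.25 to 1.08 for every other pair of liver libraries on 1 diet. These libraries were left out or summed in further fits, given below for each named gene whose call they alter.

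In liver, no member passed the test for diet (edgeR quasi-likelihood test, Benjamini-Hochberg adjusted over 15130 genes, threshold 0.05), which called 1.00% of the genes tested. At an unadjusted p under 0.05 in this test were 2 of the 10 members, Cyp4a14 and Cyp4f15, near the share of 21.2% over all liver genes tested. The member with the largest difference was Cyp4a14. Its level was 7.25, 3.19, 24.5 and 1.06 CPM in normal diet libraries 1 to 4 and 51.0, 50.1, 78.9 and 75.0 CPM in high salt libraries 5 to 8. Every high salt library lay above every normal diet library, and the normal diet libraries were themselves spread over 23.1-fold, with library 3 the highest. The log2 fold change of high salt over the normal diet was 2.83 (SE 0.76, 95% interval 1.13 to 4.53), from a mean of 8.99 ± 10.6 to 63.8 ± 15.3 CPM (SD, n = 4 each). The edgeR adjusted p of Cyp4a14 was 0.1001 (unadjusted 0.00404), so the difference missed the threshold. Without normal diet library 3 it passed, with a log2 fold change of 4.04 and an edgeR adjusted p of 0.0204, and it passed in DESeq2 on all libraries (2.82, DESeq2 adjusted p = 0.0232). With library 3 left out and high salt libraries 5 and 6 summed, the adjusted p was 0.0836.

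**Figure D1:**
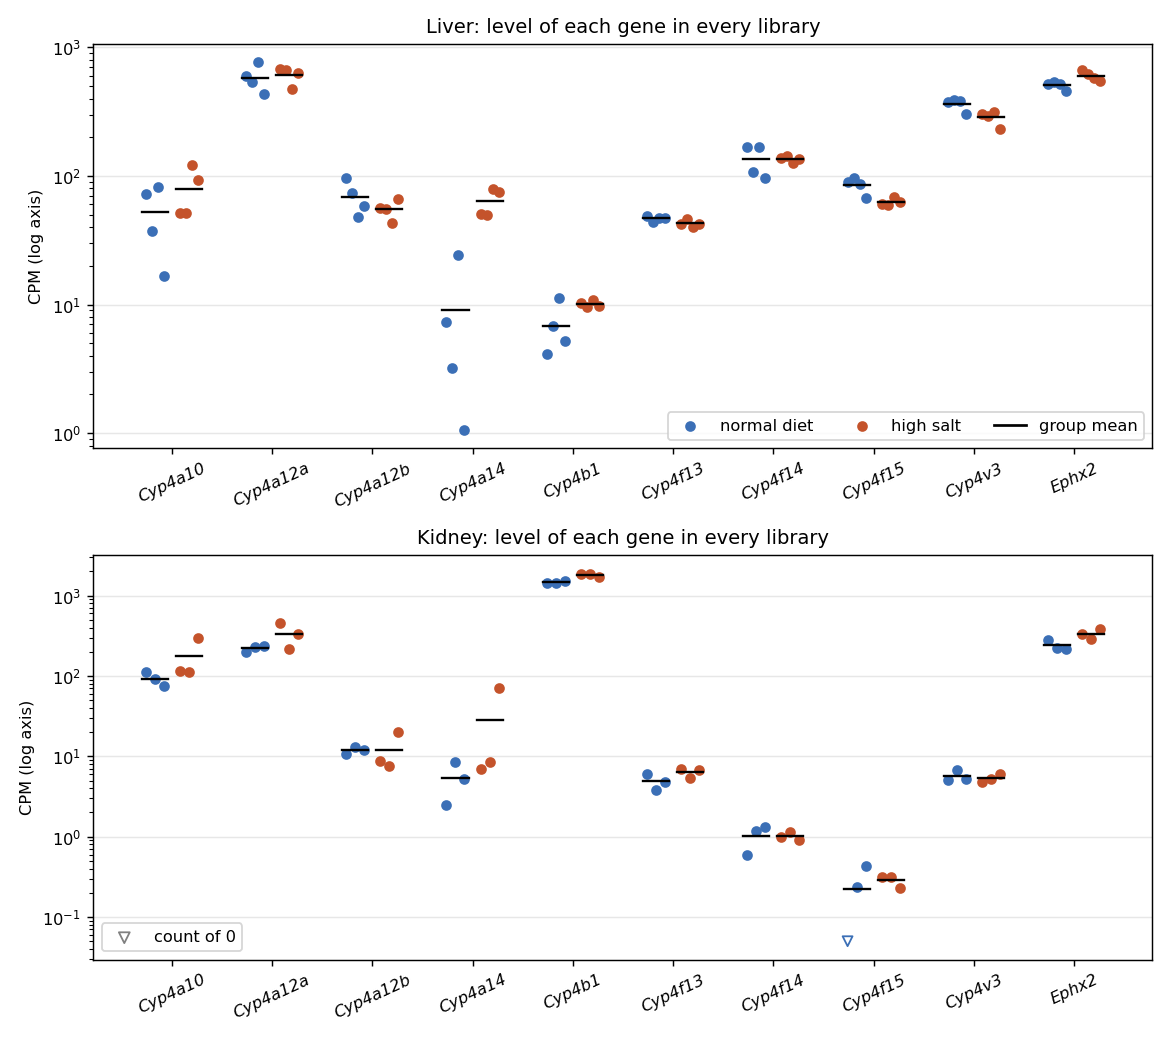
Level of the 10 genes in each library, in CPM on a log axis, for liver (top) and kidney (bottom). Blue points are normal diet libraries, orange points high salt libraries, black bars group means, and the open triangle a count of 0. Cyp4a14 in liver separates by diet, from 1.06 to 24.5 CPM on the normal diet and from 50.1 to 78.9 on high salt, and in kidney 1 high salt library stands at 70.4 CPM.

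Cyp4a10, the other PPARA-driven hydroxylase, showed no such separation in liver. Its level was 72.9, 37.6, 82.7 and 16.6 CPM on the normal diet and 51.5, 51.8, 121 and 92.9 CPM on high salt. The diets overlapped, and the log2 fold change was 0.60 (95% interval -0.45 to 1.64, edgeR adjusted p = 0.477). Cyp4a14 stood at 0.064 to 0.296 times the CPM of Cyp4a10 in the normal diet livers and at 0.652 to 0.990 times in the high salt livers. The ratio of these hydroxylases therefore separated the diets as Cyp4a14 alone did.

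Cyp4a12a was the most abundant Cyp4 transcript of the liver. Its level was 597, 534, 765 and 431 CPM on the normal diet and 680.3, 664, 474 and 627 CPM on high salt. These ranges overlapped almost wholly, with a log2 fold change of 0.07 (95% interval -0.42 to 0.56, edgeR adjusted p = 0.876). Cyp4a12b, its near-identical copy, stood at 95.6, 74.2, 47.7 and 58.6 CPM on the normal diet and 55.9, 54.9, 43.1 and 66.2 CPM on high salt. Its log2 fold change was -0.33 (edgeR adjusted p = 0.424). The summed counts of the pair gave 0.03, but Cyp4a12b made up only 5.87% to 13.8% of that sum in liver.

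The Cyp4f hydroxylases and Cyp4v3 were level or lower on high salt in liver, none past the threshold. Cyp4f15 was at 89.2, 95.7, 86.7 and 67.3 CPM on the normal diet and at 61.0, 59.8, 68.7 and 62.2 CPM on high salt. Normal diet library 4 lay within the high salt range and the other 3 above it. The log2 fold change of Cyp4f15 was -0.43 (95% interval -0.76 to -0.10, edgeR adjusted p = 0.163). Cyp4v3 was at 376, 392, 386 and 302 CPM on the normal diet and at 304, 292, 316 and 231 CPM on high salt. Again library 4 was the only normal diet library within the high salt range, and the log2 fold change was -0.35 (95% interval -0.73 to 0.03, edgeR adjusted p = 0.274). Cyp4f13 stayed between 40.2 and 48.6 CPM in all 8 libraries, the narrowest of the members as a ratio of highest to lowest, with a log2 fold change of -0.13 (95% interval -0.40 to 0.15). Cyp4f14 ranged from 96.7 to 168 CPM on the normal diet and from 125 to 142 on high salt, and its means of 135 and 136 CPM were nearly equal.

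Cyp4b1 was scarce in liver, at 4.16, 6.76, 11.2 and 5.24 CPM on the normal diet and 10.2, 9.59, 10.8 and 9.73 CPM on high salt. Normal diet library 3 was the highest of all 8, and the other 3 normal diet libraries lay below every high salt library. The log2 fold change was 0.56 (95% interval -0.06 to 1.18, edgeR adjusted p = 0.280). Without library 3 it was 0.89 with an edgeR adjusted p of 0.0407, past the threshold. With high salt libraries 5 and 6 also summed it was 0.91 but not called (edgeR adjusted p = 0.133). The summed level of 5 proximal tubule markers (S1 and S2) was 7.68 and 4.36 CPM in high salt liver libraries 7 and 8. In the other liver libraries this sum was 0.476 to 1.45 CPM, and its part in the Cyp4b1 levels was not tested.

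Ephx2, which ends the action of the epoxides, was at 519.9, 541, 521 and 462 CPM in the normal diet livers and at 669, 620.1, 579 and 546 CPM in the high salt livers. All 4 high salt libraries lay above all 4 normal diet libraries, though by a small margin. The log2 fold change was 0.24 (SE 0.16, 95% interval -0.12 to 0.60, edgeR adjusted p = 0.407). Ephx2 and Cyp4a14 were the 2 members of 10 whose diets did not overlap in liver. Such separation was seen in 12.5% of all liver genes tested. Of the members 6 had a fold change above 0 and 4 below, with a median log2 fold change of 0.04 against -0.02 over all genes.

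Beside these liver values, the summed level of the 6 pericentral hepatocyte markers listed was 8038 to 11318 CPM on the normal diet and 4841 to 6258 on high salt, with 0 of the 6 markers at 0 in all libraries. Most of this sum was the P450 gene Cyp2e1, at 3925 to 9535 CPM over the liver libraries. The pericentral list, like the others, was chosen with earlier results of these data known. By gene, 5 of the 6 markers had a fold change below 0 and 1 above. Of these markers Rhbg, an ammonium transporter, fell by 2.30 and Oat, ornithine aminotransferase, fell by 1.41 on the log2 scale (edgeR adjusted p = 0.00517 and 0.0451). Rhbg lost its call in 1 of 20 alternatives, that without normal diet library 3 and with high salt libraries 5 and 6 summed (adjusted p = 0.0509). Oat lost its call in 10 of 20. These were the fits without normal diet library 1, 2 or both, without any 1 high salt library, with libraries 5 and 6 summed, with these summed and library 3 left out, and with no filter on low counts (adjusted p up to 0.201). The summed level of 5 stellate cell and fibroblast markers was 61.9 to 116 CPM on the normal diet and 130.1 to 142 on high salt, and that of 5 general hepatocyte markers 50434 to 77059 and 88621 to 106501. Alb makes up most of the hepatocyte sum (43963 ± 8323 to 74599 ± 7507 CPM), while 3 of the 5 had a fold change below 0, the median was -0.15, and Serpina1c stood at 9798 ± 1681 and 6322 ± 719 CPM (log2 fold change -0.63, edgeR adjusted p = 0.184). The periportal, cholangiocyte, immune and endothelial sums overlapped between the diets. The part of these marker differences in the members' levels was not tested, and in bulk tissue fewer cells of a type and less RNA per cell cannot be told apart.

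In kidney the members' diet differences were also under the threshold. The test (edgeR, 15847 genes) called 0.00% of all genes, with 2.01% of them at an unadjusted p under 0.05, and DESeq2 called 13 genes, none of them a member. Of the members 9 were tested, since Cyp4f15 was too scarce, and 0 were called. Cyp4a12a, the androgen-driven 20-HETE synthase, was at 201.4, 232 and 233 CPM on the normal diet and at 452, 214 and 335 CPM on high salt. High salt library 2 lay within the normal diet range and the other 2 above it. The log2 fold change was 0.58 (95% interval -0.08 to 1.25, edgeR adjusted p = 0.9996), and 0.31 without high salt library 1.

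Renal Cyp4a14 and Cyp4a10 differed between the diets through a single library. Cyp4a14 was at 2.498, 8.49 and 5.18 CPM on the normal diet and at 6.88, 8.38 and 70.4 CPM on high salt. Cyp4a10 was at 112, 91.4 and 74.3 CPM on the normal diet and at 116, 112 and 300.1 CPM on high salt. High salt library 3 was the highest for both genes, and the other high salt libraries lay near or within the normal diet range. The log2 fold change of Cyp4a14 was 2.41 (SE 0.91, 95% interval 0.32 to 4.51, edgeR adjusted p = 0.9996), and without that library it was 0.50. For Cyp4a10 the log2 fold change was 0.93 with it and 0.30 without it. The mitochondrial share of high salt library 3 was 23.5%, the lowest of the kidney libraries, which ranged to 41.2%, and its part in these values was not tested.

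**Figure D2:**
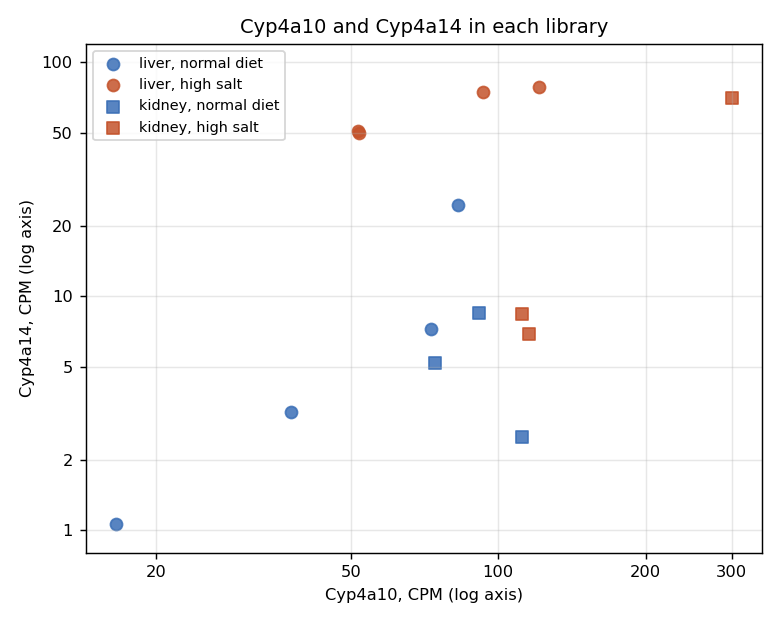
Cyp4a14 against Cyp4a10 in each of the 14 libraries, in CPM on log axes, with circles for liver, squares for kidney, blue for the normal diet and orange for high salt. The 4 high salt livers lie at 50.1 CPM of Cyp4a14 or more over a wide range of Cyp4a10, and among kidneys high salt library 3 is the highest on both axes, at 300.1 and 70.4 CPM.

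Cyp4b1 was by far the most abundant Cyp4 transcript of the kidney. Its level was 1428, 1433 and 1507 CPM on the normal diet and 1879, 1878 and 1716 CPM on high salt. The diets did not overlap, and the log2 fold change was 0.33 (SE 0.20, 95% interval -0.13 to 0.78). Ephx2 was at 281, 226 and 219 CPM on the normal diet and at 329, 288 and 383 CPM on high salt. Here too every high salt library was above every normal diet library, with a log2 fold change of 0.46 (SE 0.22, 95% interval -0.04 to 0.96). The edgeR adjusted p was 0.9996 for both. These were the 2 members of the 9 tested without overlap in kidney. Of all kidney genes tested, 6.88% separated in this way.

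The remaining kidney members were low. Cyp4a12b ranged from 7.49 to 20.3 CPM, Cyp4f13 from 3.81 to 6.88, Cyp4v3 from 4.78 to 6.79 and Cyp4f14 from 0.600 to 1.31, and the diets overlapped for each of them. Cyp4f15 ranged from 0 to 0.436 CPM, where the library with a count of 0 allows a level of up to 0.150 CPM. The median log2 fold change of the 9 tested members was 0.39, against -0.02 over all kidney genes, with 7 members above 0 and 2 below. Of the cell type lists, the muscle markers summed to 2.28 to 3.14 CPM on the normal diet and 0.409 to 0.882 on high salt, with 2 of the 5 not analysed here. The pericentral list, which in kidney as in liver is mostly the P450 gene Cyp2e1, summed to 1075 to 1589 CPM and 1591 to 1874, and the proximal tubule sums overlapped. The part of these sums in the members' levels was not tested.

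**Figure D3:**
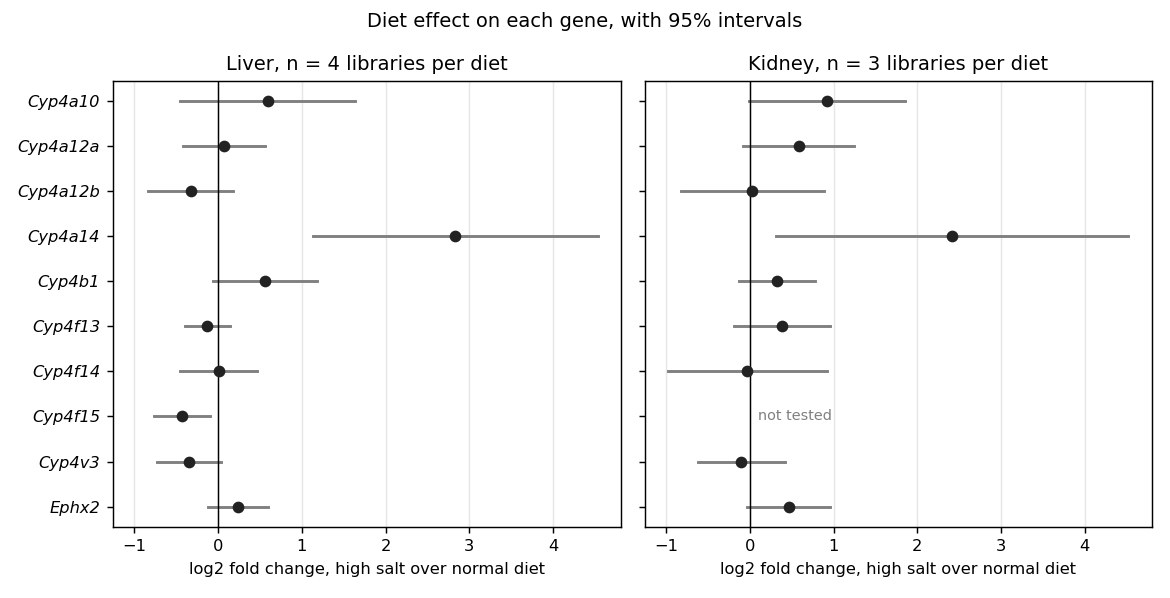
Log2 fold change of high salt over the normal diet for each gene (points) with 95% intervals (lines), in liver with 4 libraries per diet and in kidney with 3. Cyp4a14 has the largest estimates, 2.83 in liver and 2.41 in kidney, and the widest intervals, and Cyp4f15 was not tested in kidney.

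Whether diet acted differently in the tissues was asked in a joint fit of the 14 libraries over 16633 genes. No member passed (edgeR), and the test called 0.00% of all genes, with 0 members and 1681 of the 16633 genes at an unadjusted p under 0.05. The smallest unadjusted p was 0.0575, for Cyp4f13, with a log2 difference of -0.51 between the liver and kidney effects (95% interval -1.03 to 0.02, edgeR adjusted p = 0.507). For Cyp4a14 the difference was 0.44 (95% interval -2.16 to 3.03), a span that leaves large differences in either direction within it. It was 2.34 without kidney high salt library 3 (edgeR adjusted p = 0.721).

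The tissues themselves differed widely. On the normal diet 8 of the 10 members differed between liver and kidney (edgeR, adjusted over 16633 genes), 7 higher in liver and 1 higher in kidney. Among all genes 65.1% were called, 32.9% higher in liver and 32.2% higher in kidney. The levels given next are per kilobase of the longest coding transcript, from libraries scaled together, so that genes can be set side by side. Cyp4b1 was the member higher in kidney, at 627 ± 21.1 CPM per kb (SD, n = 3) against 4.27 ± 1.86 in liver (SD, n = 4), a log2 difference of -7.20 (SE 0.34, edgeR adjusted p = 2.02e-10). Cyp4f15 was at 46.6 ± 8.39 CPM per kb in liver (SD, n = 4) and 0.0841 ± 0.0823 in kidney (SD, n = 3), a log2 difference of 9.08 (SE 0.48). Cyp4f14 followed with a log2 difference of 7.58, Cyp4v3 with 6.54 and Cyp4f13 with 3.80. Each of these genes was therefore mainly a liver transcript in these libraries.

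The other members were shared more evenly. Cyp4a12a was at 285 ± 67.5 CPM per kb in liver and 74.9 ± 6.26 in kidney, a log2 difference of 1.93 (edgeR adjusted p = 4.42e-05). Ephx2 was at 299 ± 31.1 CPM per kb in liver and 96.8 ± 13.4 in kidney, a log2 difference of 1.62 (edgeR adjusted p = 1.29e-05). Cyp4a12b had a log2 difference of 3.09, or 2.02 for the summed pair. Cyp4a10 and Cyp4a14 were not called, with log2 differences of -0.27 (95% interval -1.30 to 0.76) and 1.26 (95% interval -0.66 to 3.19). Once Cyp4a10 was summed with Cyp4a31 and Cyp4a32, the group was higher in kidney by a log2 difference of -1.08 (edgeR adjusted p = 0.0325), past the threshold. Without normal diet liver library 3 the difference of Cyp4a14 was 0.10. Upper quartile scaling moved the median of all genes from 0.02 to -0.28, and the 8 calls held under it.

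**Figure D4:**
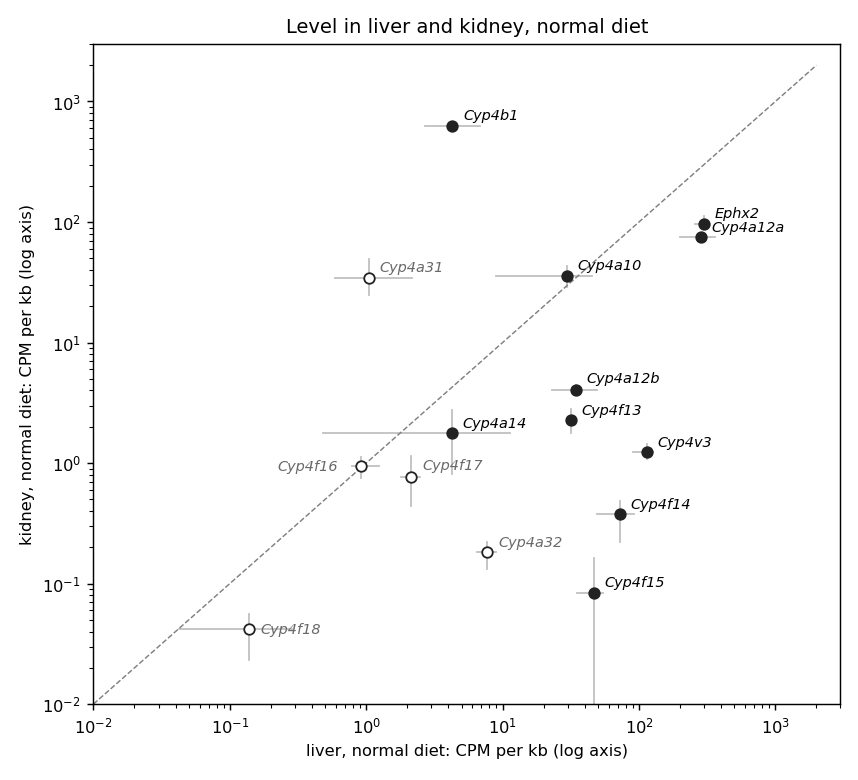
Mean level per kilobase in kidney against liver on the normal diet, in CPM per kb on log axes, for the members (filled) and other Cyp4 genes (open), with lines over the range of the libraries (cut at 0.01) and a dashed line of equality. Cyp4b1 and Cyp4a31 lie far above the line, Cyp4f14, Cyp4f15 and Cyp4v3 far below it, and Cyp4a10 on it.

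By level per kilobase the order in normal diet liver was Ephx2, Cyp4a12a, Cyp4v3, Cyp4f14, Cyp4f15, Cyp4a12b, Cyp4f13, Cyp4a10, Cyp4b1 and Cyp4a14. Only the steps from Cyp4a12a to Cyp4v3 and from Cyp4a10 to Cyp4b1 were wider than the library ranges; every other pair of neighbours overlapped. In normal diet kidney the order was Cyp4b1, Ephx2, Cyp4a12a, Cyp4a10, Cyp4a12b, Cyp4f13, Cyp4a14, Cyp4v3, Cyp4f14 and Cyp4f15. There the neighbours that overlapped were Cyp4f13 with Cyp4a14 and Cyp4a14 with Cyp4v3. Of the summed Cyp4 level per kilobase, Cyp4a12a made up 38.2% to 50.6% in the liver libraries and Cyp4b1 70.0% to 83.5% in the kidney libraries. Cyp4a14 made up 0.595% of it on average in normal diet liver and 4.75% in high salt liver.

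Promoter sequences (RefSeq, GRCm38.p6, 250 bases before to 50 after the start) were at hand for 5 of the 10 members: Cyp4b1, Cyp4v3, Cyp4f13, Cyp4f14 and Cyp4f15. They were searched on both strands for TATAAA, the HNF1 motif GTTAAT, the nuclear receptor motif AGGTCA, the HNF4 core CAAAGT and the CCAAT box. CCAAT was found in all 3 Cyp4f members and in 37.4% of 32851 promoters of this length, so it is a common match. Cyp4f14 has 4 listed starts and each of the other members 1. GTTAAT (7.1% of all promoters) was found only at the fourth of the Cyp4f14 starts, and TATAAA (13.6%), AGGTCA (16.3%) and CAAAGT (14.4%) at no start of the 5 members. CCAAT was absent at Cyp4v3, which was also higher in liver, and a link between box and level was not tested. The Cyp4f sequences are shown because these 3 genes shared a liver-high level and the box. It lies on the opposite strand and reads ATTGG, in capitals. Its first base is 76 bases before the start in Cyp4f13 (chr17:32947405-32947464, minus strand), 50 before the first listed start of Cyp4f14 (chr17:32917374-32917433, minus strand) and 78 in Cyp4f15 (chr17:32685554-32685613, plus strand).
Cyp4f13: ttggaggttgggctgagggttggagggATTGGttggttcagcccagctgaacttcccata
Cyp4f14: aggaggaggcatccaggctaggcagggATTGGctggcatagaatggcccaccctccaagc
Cyp4f15: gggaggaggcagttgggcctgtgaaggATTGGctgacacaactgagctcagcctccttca

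The copies of the Cyp4a genes split differently in the tissues. Cyp4a31 was at 151, 92.5 and 76.5 CPM in normal diet kidney and 146, 101 and 161 CPM in high salt kidney, where it made up 34.8% to 57.3% of the summed counts of Cyp4a10, Cyp4a31 and Cyp4a32. In liver it was at 1.19 to 4.84 CPM, 1.78% to 5.52% of that sum, and the log2 difference between liver and kidney was -5.05 (edgeR adjusted p = 4.89e-07). Cyp4a32 had the opposite pattern, at 5.15 to 11.0 CPM in liver and 0.678 or less in kidney (log2 difference 5.44). Cyp4a12b made up 5.87% to 13.8% of its pair with Cyp4a12a in liver and 1.88% to 5.71% in kidney. These shares rest on how the authors' estimation divided reads that match more than 1 copy, and are uncertain for that reason. Of the other Cyp4 genes, Cyp4f16 was at 1.08 to 2.45 CPM in liver and 2.07 to 3.34 in kidney, Cyp4f17 at 4.30 to 6.38 and 1.58 to 4.17, and Cyp4f18 and Cyp4f39 stayed under 0.5 CPM wherever listed. In the diet test 0 of the 5 other Cyp4 genes tested in liver and 0 of the 3 tested in kidney passed. In liver Cyp4a32 was at 9.88 ± 1.19 CPM on the normal diet and 6.53 ± 2.16 CPM under high salt (log2 fold change -0.60, edgeR adjusted p = 0.185).

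The rival branch, the Cyp2c and Cyp2j epoxygenases, was mostly lower on high salt in liver without passing the test. Of 16 listed genes tested in liver, 0 were called, 13 had a fold change below 0 and the median log2 fold change was -0.83 against -0.02 over all genes. The smallest p-values were those of Cyp2c69 (1.63 ± 1.58 to 0.240 ± 0.0969 CPM, edgeR adjusted p = 0.0746) and Cyp2c54 (310.4 ± 136 to 114.5 ± 39.1 CPM, edgeR adjusted p = 0.0867). DESeq2 called both (DESeq2 adjusted p = 0.000555 and 0.00419). Cyp2c69 was also called without normal diet library 3 (edgeR adjusted p = 0.0486), and Cyp2c54 without library 4 (edgeR adjusted p = 0.0336). The pericentral marker sum given above, mostly Cyp2e1, was lower on high salt as well, without overlap, and its part in these levels was not tested. In kidney 0 of 8 were called, 4 above and 4 below 0. The genes for arachidonic acid release, cyclooxygenases, lipoxygenases, other epoxide hydrolases and the 20-HETE receptor gave 0 calls of 11 in liver and 0 of 12 in kidney. In liver the leading ones were the phospholipases Pla2g6 (log2 fold change 0.89, edgeR adjusted p = 0.122) and Pla2g12b (-0.79, edgeR adjusted p = 0.141). Pla2g6 was called by DESeq2 (DESeq2 adjusted p = 0.0497) and Pla2g12b without normal diet library 3 (edgeR adjusted p = 0.0204). Ephx1, the microsomal epoxide hydrolase, was at 136 to 354 CPM in liver and 13.1 to 20.2 in kidney, with no call for diet in either tissue.

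Genes that supply electrons and heme to P450 enzymes gave 0 calls of 15 in each tissue, with 12 of 15 below 0 in liver. Among those with small liver p-values was the heme synthesis gene Uros (log2 fold change -0.82, edgeR adjusted p = 0.120), which was called by DESeq2 (DESeq2 adjusted p = 0.0374) and without normal diet library 3 (edgeR adjusted p = 0.0401). The list of PPARA and its targets outside the Cyp4 family gave 0 calls of 38 in liver, 22 above 0, and 0 of 37 in kidney, 30 above 0. The medians were 0.15 in liver and 0.18 in kidney. In liver the smallest p-values belonged to Acot3, a peroxisomal thioesterase (2.67 ± 2.26 to 11.4 ± 1.31 CPM, log2 fold change 2.10, edgeR adjusted p = 0.0853), and to Creb3l3, a liver transcription factor (267 ± 38.9 to 179.6 ± 5.13 CPM, -0.57, edgeR adjusted p = 0.103). DESeq2 called Acot3 and Creb3l3 (DESeq2 adjusted p = 0.00172 and 0.00651), and so did edgeR without normal diet library 3 (edgeR adjusted p = 0.0240 and 0.0448). The partners of omega-oxidation, which carry omega-hydroxy acids on to dicarboxylic acids and the peroxisome, gave 0 calls of 15 in liver and 0 of 14 in kidney. Aldh1a1, a retinal and aldehyde dehydrogenase, had a log2 fold change of -0.62 in liver (edgeR adjusted p = 0.163, and 0.0484 without normal diet library 4) and 1.53 in kidney (edgeR adjusted p = 0.9996).

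Sex-biased liver genes were listed because Cyp4a12a is male-biased. Of 15 male-biased genes 3 were called lower on high salt in liver and 0 higher, beside 1.00% called over all genes. Both sex-biased lists were chosen with earlier results of these data known, so counts of their calls cannot be read as enrichment. Of the 15, 14 had a fold change below 0 and 1 above, with a median log2 fold change of -0.51 against -0.02 over all genes. Cyp7b1, an oxysterol hydroxylase, fell from 475 ± 42.7 to 157 ± 22.0 CPM (log2 fold change -1.60, edgeR adjusted p = 0.00517). Selenbp2 fell from 1129 ± 185 to 228 ± 93.1 CPM (-2.31, edgeR adjusted p = 0.0130), and Moxd1 from 18.2 ± 19.1 to 0.118 ± 0.172 CPM (-7.19, edgeR adjusted p = 0.0470). Of 6 female-biased genes tested, Cyp2b10 was called lower (-2.38, edgeR adjusted p = 0.0321) and 0 were called higher. Of the 6, 4 had a fold change above 0 and 2 below, with a median log2 fold change of 1.10 against -0.02 over all genes. Acot3, given above with the PPARA targets, was among these 6, so the lists are not separate. Cyp7b1 lost its call in 1 of 20 alternatives, that without normal diet library 3 and with high salt libraries 5 and 6 summed (adjusted p = 0.0633). Selenbp2, Cyp2b10 and Moxd1 lost theirs in that fit, with libraries 5 and 6 summed alone, and without normal diet libraries 1 and 2 together. Selenbp2 also lost it without high salt library 5, 6 or 8 (6 of 20 alternatives in all, adjusted p up to 0.0715). Cyp2b10 also lost it without normal diet library 2 or high salt library 5, 6 or 8 (7 of 20, up to 0.139). Moxd1 also lost it without normal diet library 1 or 2 or any high salt library, and on the deposited normalized values with either pseudocount (11 of 19, up to 0.185). Cyp4a12a itself, as given above, had a liver log2 fold change of 0.07. The androgen-responsive kidney genes gave 0 calls of 10 in kidney.

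Across libraries, the genes most like Cyp4a14 in liver were Sgpl1, Rgmb, Acot3, Plpp6 and Ppp2r3a, with Pearson r of log2 CPM from 0.97 to 0.98 over 8 libraries among 12175 genes. For Cyp4f15 they included Sephs2, Atg12, Them4 and Cox11 (0.98 to 0.99), and for Ephx2 they were Abcd3, Znrf2, Serac1, Cdc14b and Reep3 (0.96 to 0.97). For Cyp4a14 over the 6 kidney libraries, among 11813 genes, they were Iscu, Tmem268, Acad8, Spint2 and Spn (0.98 to 1.00), an order in which high salt library 3 carries great weight. Between members the 3 highest r in liver were 0.86 for Cyp4f15 with Cyp4v3, 0.81 for Cyp4a12a with Cyp4f14 and 0.81 for Cyp4a10 with Cyp4a14. In kidney they were 0.89 for Cyp4f13 with Ephx2, 0.88 for Cyp4a10 with Ephx2 and 0.85 for Cyp4a10 with Cyp4a14. The lowest r was -0.79 in liver, for Cyp4a12b with Cyp4b1, and -0.63 in kidney, for Cyp4f13 with Cyp4v3. All of these are descriptions of few libraries, which share their diet groups and their depth and composition.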

How the data were processed

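Liver and kidney RNA was sequenced from SMARTer libraries and aligned to mm10; STAR 2.5.3a and Partek 7.0 are named in the submitters' processing notes. The authors deposited expected counts per gene, per the file headers, and normalized values, a signal per gene whose method is not given in the sources used here. In liver the deposited signal is the count times 1 factor per library. The kidney signal holds 24399 genes and was used as an alternative only.

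Expected counts were rounded and tested with edgeR 4.0.16 (R 4.3.3; TMM, filterByExpr, quasi-likelihood) for diet within each tissue, without a replicate block, and in 1 fit of 14 libraries for tissue and interaction. CPM use TMM library sizes, and a zero count is known only to lie under 3 counts. Intervals around fold changes are at 95% confidence; floors cover counting error only. Transcript lengths and coordinates come from GENCODE M21 (GRCm38), promoters from RefSeq. Log2 CPM for correlations used a prior count of 2 and genes with a mean of at least 50 counts.

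The fits were tested on simulated counts in which 200 genes with a mean of at least 50 counts had a log2 change of 2. They found 191 in liver (9 false calls, 15019 genes), 185 in kidney (8, 15630 genes), 144 for the interaction and 190 between tissues (8 and 16, 16218 genes). Changes in scarcer genes, smaller changes and libraries alike within a diet were not simulated, so these rates do not cover them. For the interaction and between tissues, liver and kidney were simulated with the same baseline outside the changed genes. The wide tissue differences of these data are therefore not covered either. The members and lists were chosen with earlier results of these data known. All members are named. From other lists, genes past the threshold are named (up to 6), or else up to 2 with the smallest p-values; some genes that this rule or the likeness rule picks are not reported here. Ephx1 and Cyp2e1 were singled out after their values were seen. Also run were DESeq2 1.42.0, scaling by RLE or the upper quartile, limma 3.58.1 on the deposited signal (pseudocounts 1 and 0.1), other filters, summed copies and libraries left out.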

Additional observations from a re-analysis of the deposited data

How the results depend on the processing

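The number of members called for diet in liver was 0, and 1 with DESeq2; leaving out 1 library at a time it ranged from 0 to 2, with 2 (Cyp4a14 and Cyp4b1) without normal diet library 3. The liver fold change of Cyp4a14 ranged from 2.32 to 4.14 (log2) over 20 alternatives. The counts of members called in kidney (0), for the interaction (0) and between tissues (8) stayed within 1.5 times under every alternative run. Alternatives reversed the sign of some members' estimates, not all of them near 0, and the cause was not tested. The main estimates that reversed lay between -0.36 and 0.44, the outermost being Cyp4a12b and Cyp4a14 for the interaction. In liver Cyp4f14 was -0.0031 with DESeq2, -0.00018 with no filter and -0.010 with high salt libraries 5 and 6 summed, and -0.13 to 0.12 with 1 library left out. With copies summed, the liver value set against Cyp4a12b was 0.034, which is that of its pair with Cyp4a12a. Cyp4a12b in liver was 0.051 without normal diet libraries 1 and 2, and Cyp4a12a was -0.059 to 0.22 with 1 library left out. In kidney the deposited signal gave -0.15 (pseudocount 1) and -0.16 (pseudocount 0.1) for Cyp4a12b and 0.063 and 0.070 for Cyp4f14. With 1 library left out Cyp4a12b ranged from -0.56 to 0.28, Cyp4f14 from -0.30 to 0.19 and Cyp4v3 from -0.19 to 0.035. For the interaction, Cyp4f14 was -0.023 with RLE and -0.024 with DESeq2 and ranged from -0.20 to 0.32 with 1 library left out, Cyp4a14 from -0.037 to 2.34, Cyp4a10 from -0.64 to 0.28 and Cyp4a12b from -0.60 to 0.22. Between tissues Cyp4a10 ranged from -0.55 to 0.032 with 1 library left out. Same-numbered kidney libraries deviated together in only some pairs (correlations of 0.41, 0.37 and -0.09), so the numbers were not taken to pair them. The replicate block called 0 members, with -0.11 for Cyp4a12b and 0.025 for Cyp4f14. Whether the spread between replicates or the depth limits the members more was not tested. Cyp4f14 and Cyp4f15 in kidney rest on at most 27 and 9 counts per library. Of 20 liver groups of 4 libraries, 1 per member and diet, 0 held a library far from the others by Dixon's criterion. With only 4 libraries per group this criterion can flag little, so the 0 does not show that no library stands apart. Normal diet Cyp4v3, with library 4 at 302 CPM and the others at 376 to 392, lay near its limit. The 0 may therefore depend on whether CPM or log2 CPM is used. Leaving out normal diet library 3 altered the calls of Cyp4a14 and Cyp4b1 all the same.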
